A study of Bos taurus with 9 samples.

Results

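The genes described here are the 4 oligoadenylate synthase genes OAS1X, OAS1Y, OAS1Z and OAS2, picked by symbol from the 17162 genes of an FPKM table of bovine endometrial cells. All 4 were in the table, and cattle carry OAS1X, OAS1Y and OAS1Z in place of a single OAS1. Other genes tied to the same pathway were taken from a list and are reported beside them. The 9 RNA-seq libraries came from primary cells labelled as wild type and as endometrial epithelial (BEND), grown from Holstein uteri collected at an abattoir, in 3 groups of 3. CON cells were untreated. GA cells received 1 nM estradiol (E2) and 100 nM progesterone (P4). GB cells received the same hormones for 12 h and then 100 ng/mL interferon tau (IFNT) for 12 h more. All groups were first grown in the same medium with serum. The methods state a change to fresh medium for the hormone-treated groups, and do not say whether CON had a change or a vehicle. In the comparisons with CON, such a difference and the treatments cannot be told apart. Neither the labels nor the methods state when the CON and GA cultures were collected, so in the comparisons with GB, IFNT and time in culture cannot be told apart. GB also differs from CON by E2 and P4, and perhaps from GA by the time with them. No group received IFNT without hormones. The methods call the replicates biological but do not state how many cows or separate cultures stand behind them, so the p-values measure the spread between these libraries, which may be technical in part.

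OAS enzymes bind double-stranded RNA and then join ATP molecules through 2′-5′ bonds into short oligoadenylates, called 2-5A. The 2-5A is a second messenger of the antiviral response, and other enzymes break it down again. The OAS genes are classical interferon-stimulated genes. In ruminants the conceptus announces itself with IFNT, a type I interferon, and the endometrium is its nearest target.

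FPKM values, which are scaled for transcript length, summed to 1395622 to 1442723 per library, and the table does not give the number of reads behind each value. The cell label was set against marker genes. All 8 epithelial markers (KRT7, KRT8, KRT18, KRT19, CDH1, CLDN3, CLDN4 and ESRP1) had a mean under 0.5 FPKM, and their sum per library ran from 0.64 to 1.53 FPKM for CON, from 1.08 to 1.61 for GA and from 1.16 to 2.14 for GB. None of the 8 was at 0 in every library. The 8 stromal fibroblast markers (VIM, COL1A1, COL1A2, COL3A1, PDGFRA, DCN, LUM and THY1) summed to 16529 to 17078 FPKM for CON, 16765 to 17146 for GA and 15004 to 15110 for GB, and none of them was called in any comparison (at an unadjusted limma p under 0.05, 3 were higher and 4 lower in GB vs. CON). The study identified the cells as epithelial by immunofluorescence for cytokeratin, a protein measure that is not among the data used here. The mRNA of these markers goes against the label, and the cells are called BEND here only as the labels name them. Of 7 immune markers in the table, 6 had a mean under 0.5 FPKM, and CD14 was at 16.69 to 23.27 FPKM. The 6 endothelial markers summed to at most 6.16 FPKM. The stromal sum was lower, and the endothelial sum higher, in every GB library than in any other. The endothelial sum was 4.88 to 6.16 FPKM in GB, 2.44 to 4.10 in CON and 1.99 to 4.09 in GA. Single markers went both ways: PDGFRA was higher in GB than in CON or GA, and VWF and TEK had lower means in GB. Only 2 of the 6 endothelial markers were tested, and neither was called in any comparison. The part of these sums in the OAS results was not tested.

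All 4 OAS genes were higher in GB, the cells given IFNT after E2 and P4, than in CON or GA, and none was called between GA and CON. Calls were made with limma on log2(FPKM + 0.5) over 12578 genes, and a gene was called when its log2 fold change (log2FC) was above 1 in size and its Benjamini-Hochberg adjusted p was under 0.05. In GB vs. CON, 4 of 4 OAS genes were called higher, against 2.94% of all tested genes called higher and 1.07% called lower. In GB vs. GA, 4 of 4 were called higher, against 2.66% higher and 0.978% lower. These comparisons share the GB libraries. In GA vs. CON, 0 of 4 were called, against 0.0318% of all tested genes called higher and 0.0398% lower, and 1 of the 4 (OAS1X, lower) had an unadjusted limma p under 0.05. Only OAS1X and OAS1Y inform that last count, because OAS1Z and OAS2 were at or near 0 in both groups and passed the filter on low values (a mean of 0.5 FPKM over the 9 libraries) through GB alone. Having passed that way, OAS1Z and OAS2 could not be called lower in GB, so only OAS1X and OAS1Y inform the 4 of 4 counts. The median log2FC of the 4 genes was 7.68 against CON and 7.54 against GA, where the medians over all tested genes were −0.016 and −0.075. It was 0.10 in GA vs. CON, where that of all tested genes was 0.061. Each median of the 4 genes includes OAS1Z and OAS2.

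**Figure D1:**
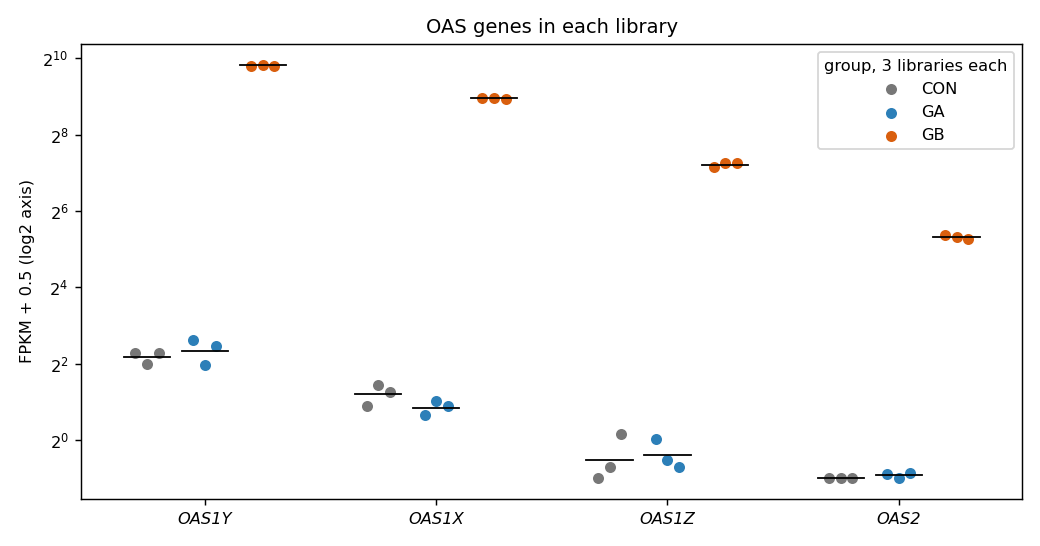
Each point is the value of 1 library, as FPKM + 0.5 on a log2 axis, for the 4 OAS genes in CON, GA and GB (3 libraries each), and each bar is the mean of the log2 values. A listed value of 0 sits at 0.5, as OAS2 does throughout CON. The GB points lie above all others for each gene, and the CON and GA points of each gene overlap.

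OAS1Y was the most abundant of the 4 genes in every library. CON libraries held 4.32, 3.50 and 4.38 FPKM, GA libraries 5.64, 3.38 and 4.98, and GB libraries 897.3, 913 and 891. The 6 libraries without IFNT thus spanned 3.38 to 5.64 FPKM, with CON and GA overlapping, and the GB libraries lay far above them. In bulk RNA, more cells with the transcript and more transcript per cell cannot be told apart. Its mean FPKM was 221-fold higher in GB than in CON and 193-fold higher than in GA. The log2FC was 7.63 in GB vs. CON (standard error, SE, 0.15, limma p adjusted by Benjamini-Hochberg = 6.1e-10) and 7.47 in GB vs. GA (SE 0.15, adjusted p = 7.0e-10).

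OAS1X measured 1.34, 2.21 and 1.91 FPKM in the CON libraries, 1.07, 1.52 and 1.34 in GA, and 498, 497 and 489.96 with IFNT. Again only the GB libraries stood apart, and within GB the spread was small, with a coefficient of variation of 0.857% for OAS1X and 1.3% for OAS1Y. The mean FPKM of OAS1X was 272-fold higher in GB than in CON. Its log2FC was 7.76 in GB vs. CON (SE 0.14, limma p adjusted by Benjamini-Hochberg = 3.8e-10) and 8.10 in GB vs. GA (SE 0.14, adjusted p = 3.0e-10).

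OAS1Z was near the lower end of the table without IFNT, with 0, 0.11 and 0.62 FPKM for CON and 0.52, 0.20 and 0.11 for GA. In GB it was at 141, 152 and 151 FPKM. The CON and GA values overlapped, and the lowest GB value was above all of them. Its log2FC was 7.73 in GB vs. CON (SE 0.29, limma p adjusted by Benjamini-Hochberg = 5.0e-08) and 7.61 in GB vs. GA (SE 0.29, adjusted p = 5.8e-08). These SEs were the widest of the 4 genes. OAS1Z passed the filter on low values through GB alone, so it could not be called lower in GB. Its p-values therefore only describe these libraries. The log2FC of OAS1Z in GB vs. CON was 9.23 with a pseudocount of 0.1 and 6.94 with a pseudocount of 1.

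OAS2, whose protein holds a pair of OAS domains joined in 1 chain, was listed at 0 in every CON library, while GA libraries had 0.04, 0 and 0.05 FPKM. In GB it was at 41.0, 39.6 and 37.8 FPKM. No fold against CON is given, because CON was at 0. On the log2(FPKM + 0.5) scale the difference was 6.32 in GB vs. CON (SE 0.12, limma p adjusted by Benjamini-Hochberg = 5.5e-10) and 6.24 in GB vs. GA (SE 0.12, adjusted p = 6.4e-10). The size of this difference is set largely by the pseudocount, and it was 8.63 with a pseudocount of 0.1 and 5.34 with a pseudocount of 1 in GB vs. CON. Like OAS1Z, OAS2 passed the filter through GB alone and could not be called lower in GB, so its p-values only describe these libraries.

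The order of the levels was the same in the 9 libraries, with OAS1Y above OAS1X and OAS1X above OAS1Z, while OAS2 was lowest and tied with OAS1Z at 0 in 1 CON library. Neighbours in this order did not overlap within GA or within GB, and in CON the only contact was that tie. By mean FPKM over the 17162 genes of the table, OAS1Y went from rank 10225 in CON to rank 249 in GB. OAS1X went from rank 11226 to 465, OAS1Z from 13270 to 1520. OAS2, tied at 0 with many other genes in CON, was at rank 4409 in GB. The 4 genes together made up 0.112% ± 0.00097 (SD, n = 3) of the summed FPKM of a GB library and 0.00044% ± 0.000043 of that of a CON library.

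By log2FC in GB vs. CON, OAS1X, OAS1Z and OAS1Y ranked 10, 11 and 12 among the 12578 tested genes, and OAS2 ranked 22. In GB vs. GA they ranked 7 for OAS1X, 11 for OAS1Z, 13 for OAS1Y and 27 for OAS2. The log2FC of the 3 OAS1 genes in GB vs. CON, between 7.63 and 7.76, lay within 1 SE of each other. In GB vs. GA they ran from 7.47 for OAS1Y to 8.10 for OAS1X, and differences between the genes were not tested. This order, and the closeness of the 3 OAS1 genes in GB vs. CON, depended on the pseudocount. With 0.1, OAS1Z (9.23) and OAS2 (8.63) came before OAS1X (8.04) and OAS1Y (7.76) in GB vs. CON, and with 1 the values were 7.48 for OAS1Y, 7.47 for OAS1X, 6.94 for OAS1Z and 5.34 for OAS2.

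**Figure D2:**
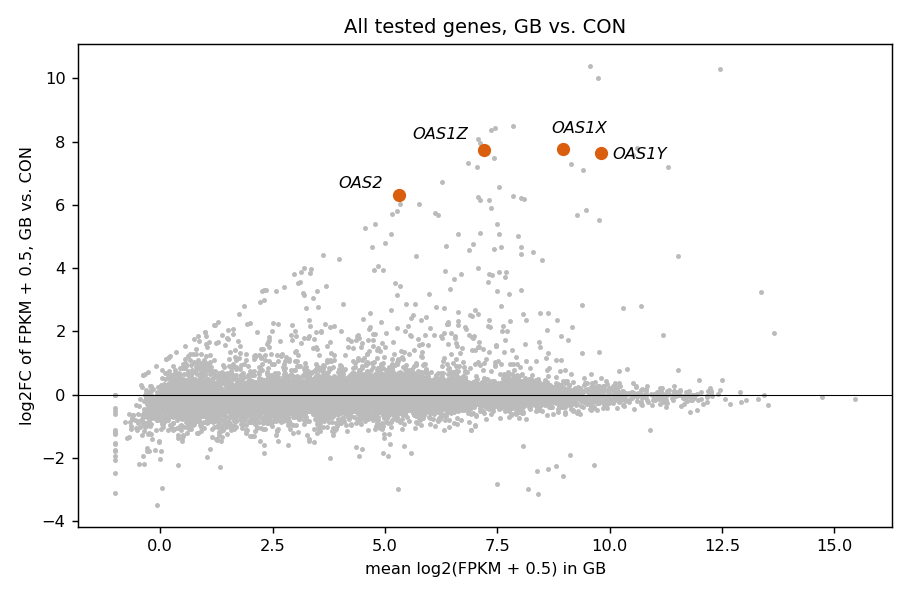
Each grey point is 1 of the 12578 tested genes, with the mean log2(FPKM + 0.5) of the 3 GB libraries on the x axis and the log2FC in GB vs. CON on the y axis, and the OAS genes are in orange. With the pseudocount of 0.5, the 3 OAS1 genes lie at nearly the same height, between 7.63 and 7.76, at different levels in GB, and OAS2 is at 6.32. These heights depend on the pseudocount, most of all for OAS1Z and OAS2.

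Between GA, with E2 and P4 alone, and CON, neither of the 2 OAS genes with a measurable level in these groups passed the threshold. In GA vs. CON the log2FC was 0.16 for OAS1Y (95% interval −0.18 to 0.50, limma p adjusted by Benjamini-Hochberg = 0.595) and −0.35 for OAS1X (−0.67 to −0.030, adjusted p = 0.226). OAS1Z, at a mean of 0.243 FPKM in CON and 0.277 in GA, and OAS2, at 0 and 0.030, were too low there for a comparison. Their fitted log2FC of 0.12 (−0.53 to 0.77) and 0.083 (−0.20 to 0.36) are set by the pseudocount and are no evidence that they did not change. The interval of OAS1X alone kept to 1 side of 0 before adjustment (unadjusted p = 0.0353, limma), and its CON and GA libraries overlapped. The fitted OAS1Z value turned to −0.12 without CON1 and to −0.097 without GA1.

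The OAS1 genes are closely related copies, and reads that suit more than 1 of them are shared out by estimate when counted with RSEM, so each gene's own level is less certain than their sum. The sum of the 3 came to 5.66, 5.82 and 6.91 FPKM for CON, 7.23, 5.10 and 6.43 for GA, and 1536, 1562 and 1532 for GB. The means of these sums were 252-fold higher in GB than in CON and 247-fold higher than in GA. In GB the sum was divided almost alike in the 3 libraries, with 58.3% ± 0.18 (SD, n = 3) from OAS1Y, 32.1% ± 0.31 from OAS1X and 9.59% ± 0.36 from OAS1Z. Without IFNT the shares varied more between libraries, and OAS1Y gave 60.1% to 76.3% in CON and 66.3% to 78.0% in GA. The ratio of OAS1X to OAS1Y was 0.544 to 0.555 in GB, which lies inside the CON range of 0.310 to 0.631 and above the GA range of 0.190 to 0.450.

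The OAS1Z share was 9.18%, 9.71% and 9.88% in GB. In CON it was 0%, 1.89% and 8.97%, and in GA 7.19%, 3.92% and 1.71%. Each GB library was above each library without IFNT, and the means were 9.59% and 3.95%, 5.64 percentage points apart (two-sided exact permutation test of 3 against 6 libraries, p = 0.0238, the smallest p that this design allows). The shares without IFNT rest on OAS1Z values of 0 to 0.62 FPKM, so they are near the lower limit of the table, and the 6 libraries join CON and GA, which were treated differently. For both reasons the p is given as a description of these libraries, and no difference in makeup is drawn from it. Against CON alone or GA alone the smallest possible p is 0.1, and the exact permutation test gave 0.1 in each.

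**Figure D3:**
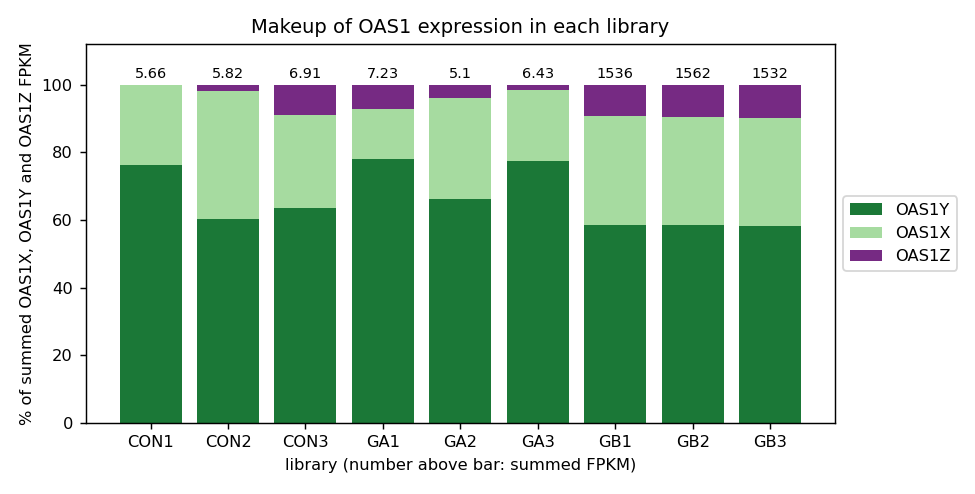
Stacked bars show the share of OAS1Y, OAS1X and OAS1Z in their summed FPKM in each of the 9 libraries, and the number above a bar is that sum. The 3 GB bars look alike, with OAS1Y at 58.1% to 58.5%, while the CON and GA bars, with sums of 5.10 to 7.23 FPKM, differ from each other.

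In the RefSeq annotation of assembly ARS-UCD2.0, a later build than the ARS-UCD1.2 to which the reads were aligned, the 4 genes stand next to each other in the order OAS2, OAS1Y, OAS1X, OAS1Z, and OAS2 overlaps OAS1Y. Reads in such an overlap may be shared between these 2 genes. OAS2 amounted to 0% of the OAS1Y FPKM in each CON library, 0% to 1.00% in GA and 4.25% to 4.57% in GB, and the part of any overlap in this was not tested. The 4 protein-coding genes on the OAS2 side were RITA1, IQCD, TPCN1 and SLC8B1. On the OAS1Z side were RPH3A, PTPN11, RPL6 and HECTD4, of which RPH3A was not analysed here.

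Differences beyond the cluster were much smaller. IQCD, which encodes a dynein regulatory complex protein and is the third gene from OAS2, was the only one of the 7 tested neighbours called, at 2.98, 3 and 4.03 FPKM for CON, 4.07, 3.35 and 3.43 for GA, and 8.33, 6.20 and 8.24 for GB. Its log2FC was 1.08 in GB vs. CON (SE 0.15, limma p adjusted by Benjamini-Hochberg = 0.00068), close to the threshold of 1, and 0.97 in GB vs. GA, where it was not called. It was called there without GA1 (1.05) and without GB2 (1.10). SLC8B1, which encodes a mitochondrial sodium and calcium exchanger and stands directly beside OAS2, was at 0.47 in GB vs. CON. PTPN11, which encodes the phosphatase SHP2, was at −0.20. The other 4 lay between −0.30 (TPCN1) and 0.23 (RITA1). Of all tested genes, 2.94% were called higher and 1.07% lower in GB vs. CON, and 2.66% and 0.978% in GB vs. GA. With 1 call among 7 genes, nothing about the region is drawn from this count.

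**Figure D4:**
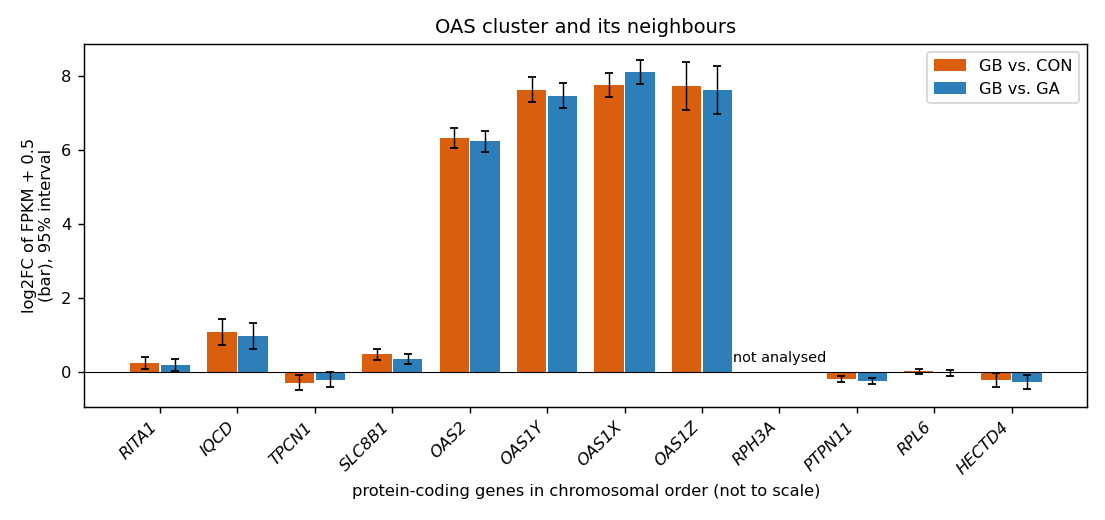
Bars give the log2FC of FPKM + 0.5 of GB against CON and GB against GA with 95% intervals from limma, for the OAS genes and the 4 nearest protein-coding genes on each side, in chromosomal order and not to scale. The OAS bars reach from 6.24 to 8.10, while the highest neighbour, IQCD, is at 1.08. RPH3A was not analysed here.

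Other genes of the 2-5A pathway moved less than the synthases. Of 4 listed genes with values, 3 could be tested, of which 1 (AKAP7) was called higher and 0 lower against CON, and the counts against GA were also 1 and 0. At an unadjusted limma p under 0.05, 2 were higher and 0 lower in each. Their median log2FC was 0.50 and 0.44, where that of all tested genes was −0.016 and −0.075. Of all tested genes, 2.94% were called higher and 1.07% lower against CON, and 2.66% and 0.978% against GA. In GA vs. CON 0 of the 3 listed genes were called, and 0 of them had an unadjusted limma p under 0.05. The shares of all tested genes called there were 0.0318% higher and 0.0398% lower. OASL, an OAS relative that lacks the synthase activity in humans, was listed at 0 in 8 libraries and at 0.11 FPKM in GB3, and was not tested.

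AKAP7 encodes an anchoring protein for protein kinase A, and the AKAP7 protein also carries a domain that can break down 2-5A. Its level was 0.96, 0.55 and 1.37 FPKM for CON, 0.83, 1.3 and 2.94 for GA, and 7.38, 13.1 and 7.51 for GB. The groups CON and GA overlapped, and GB2 stood above the other GB libraries. It was called higher than in CON by a log2FC of 2.74 (SE 0.37, limma p adjusted by Benjamini-Hochberg = 0.000507) and higher than in GA by 2.24 (SE 0.37, adjusted p = 0.00192).

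PDE12, the phosphodiesterase that degrades 2-5A, showed 24.4, 21.1 and 22.5 FPKM for CON, 23.2, 24.1 and 23.5 for GA, and 33.6, 30.7 and 32.5 for GB. Its GB libraries were above all others. The log2FC of 0.50 in GB vs. CON (SE 0.064, limma p adjusted by Benjamini-Hochberg = 0.00038) and 0.44 in GB vs. GA (adjusted p = 0.000924) stayed under the fold threshold, so it was not called. ABCE1, a ribosome recycling factor, averaged 87.2 ± 3.81 FPKM (SD, n = 3) for CON, 95.7 ± 5.18 for GA and 90.2 ± 7.34 for GB. Its groups overlapped, and its log2FC was 0.046 in GB vs. CON (95% interval −0.11 to 0.20) and −0.087 in GB vs. GA (−0.24 to 0.065).

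**Figure D5:**
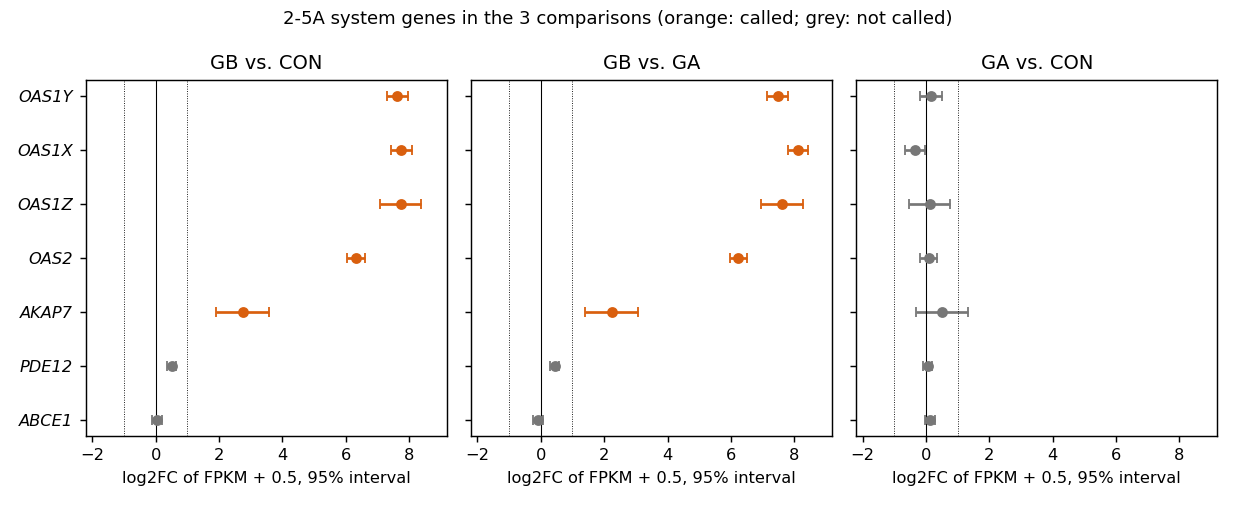
Points give the log2FC of FPKM + 0.5 from limma with its 95% interval, for all 3 comparisons, for the OAS genes, AKAP7, PDE12 and ABCE1, with dotted lines at −1 and 1. The synthases lie between 6.24 and 8.10 in both comparisons with GB, AKAP7 is at 2.74 and 2.24, and PDE12 and ABCE1 lie within the dotted lines. The intervals of the synthases in the comparisons with GB rest on a pseudocount of 0.5.

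Double-stranded RNA, which OAS enzymes need, is also read by other proteins. Of 15 listed genes for sensors and binding proteins of double-stranded RNA, 7 were called higher and 0 lower against CON, and the median log2FC over the 15 was 0.26. Their counts were 7 and 0 in GB vs. GA (median 0.049) and 0 and 0 in GA vs. CON (median 0.082). Of all tested genes, 2.94% were called higher and 1.07% lower against CON (median −0.016), and 2.66% and 0.978% against GA (median −0.075). In GA vs. CON these shares were 0.0318% and 0.0398% (median 0.061). At an unadjusted limma p under 0.05, 4 of the 15 were lower in each comparison with GB, and 2 were higher in GA vs. CON. The 7 were IFIH1, ZBP1, DHX58, DDX58, EIF2AK2, ADAR and TLR3. Without IFNT, IFIH1 (means of 0.46 FPKM in CON and 0.513 in GA) and ZBP1 (0.247 and 0.263) were too low to be called lower in GB. IFIH1, the sensor MDA5, had a log2FC of 7.49 in GB vs. CON and rose from between 0.37 and 0.58 FPKM in CON to between 164 and 179 in GB. EIF2AK2, the kinase PKR that halts translation, had a log2FC of 3.19, and ADAR, which edits double-stranded RNA, 2.18. TLR3, an endosomal sensor, was at 1.25 against CON and 1.04 against GA, and the latter call was lost without GA3 (0.97). Among the genes not called, DHX9, a helicase that unwinds double-stranded RNA, was at −0.22 and ADARB1, another editing enzyme, at −0.61 in GB vs. CON.

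Type I interferons act on the receptor IFNAR1 and IFNAR2 through the kinases JAK1 and TYK2, and STAT2 and IRF9 are among the factors that carry the signal to the nucleus. Of these and 3 further IRF genes, 9 in all, 5 were called higher and 1 lower against CON, and the median log2FC was 1.51. The counts were 5 and 1 in GB vs. GA (median 1.21), and 0 and 0 in GA vs. CON (median 0.0015, with 0 genes at an unadjusted limma p under 0.05). Of all tested genes, 2.94% were called higher and 1.07% lower against CON (median −0.016), and 2.66% and 0.978% against GA (median −0.075). In GA vs. CON these shares were 0.0318% and 0.0398% (median 0.061). The log2FC in GB vs. CON was 1.85 for STAT2 and 2.15 for IRF9. It was 2.59 for IRF7, 2.24 for IRF1 and 1.51 for IRF2. IFNAR1 was the gene called lower, with 32.5, 29.7 and 34.7 FPKM for CON, 35.7, 36.0 and 38.1 for GA, and 12.4, 15.1 and 15.2 for GB, a log2FC of −1.16 against CON and −1.34 against GA. In CON both STAT2, at 12.0 to 13.3 FPKM, and IRF9, at 22.8 to 26.6, were above all 4 OAS genes.

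The genes whose profiles lay nearest to the OAS genes were found by the root mean square distance of log2(FPKM + 0.5) over the 9 libraries, after taking away the CON mean. For OAS1Y these were IFIH1 (0.20), MX1 (0.25), a dynamin-like antiviral GTPase, and TNFSF10 (0.28), the death ligand TRAIL. For OAS1X they were IFIH1 (0.33), MX1 (0.35) and IFI27 (0.36). OAS1Z was nearest to IFIH1 (0.33), OAS1Y (0.33) and the nucleic acid sensor gene ZBP1 (0.34). OAS2 was nearest to LOC512486 (0.21) and LOC100336669 (0.25), which the table describes as guanylate-binding proteins, and to CMPK2 (0.26), a mitochondrial nucleotide kinase. OAS1Z and OAS2 were at or near 0 in CON, and IFIH1, TNFSF10, ZBP1 and LOC100336669 had CON means of 0.46 FPKM or less. The height of all these profiles, and so each distance that involves them, depends on the pseudocount of 0.5. Other genes may lie nearest with another, also for OAS1X and OAS1Y. The distances describe these libraries and carry no test.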

How the data were processed

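The authors trimmed reads with fastp (v0.21.0), removed rRNA reads with Bowtie2 (v2.33), aligned the rest to ARS-UCD1.2 with HISAT2 (v2.2.1) and counted reads per gene by RSEM (v1.3.3), as their methods and processing notes state. Libraries were directional. Not given in the sources used here are the release of the annotation and the strand setting of the counting. The values deposited are FPKM (fragments scaled to transcript length and to the mapped reads of the library) per gene and library, written to 2 decimals, with no pooling. The study states read totals, but no read counts per gene were used here, so the depth behind each value is unknown and the authors' DESeq2 test was not repeated.

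The table was transformed to log2(FPKM + 0.5) and scaled no further. The 12578 genes whose mean over the 9 libraries was at least 0.5 FPKM were fitted with limma 3.58.1 in R 4.3.3, with 1 mean per group and a variance trend, so that the 3 comparisons share an estimate of the spread. p-values were adjusted over all tested genes, and the thresholds were those of the study. The pseudocount makes fold changes of genes at low FPKM smaller. The procedure was also run on simulated data with smaller shifts than those of the OAS genes. Nothing about these genes is drawn from that run. The OAS1Z share was tested with an exact permutation test in scipy 1.17.1. The genes named are the OAS genes, genes of 3 lists (2-5A pathway, double-stranded RNA proteins, interferon signalling), neighbours and nearest profiles. The genes and lists were chosen with earlier results of these data known. The lists also named OAS1, OAS3, RIGI (DDX58 was used for it) and CD2, which were not analysed here under these symbols, and some genes of these pathways are not reported here. RefSeq gene order came from ARS-UCD2.0, and no sequences were used here. Alternatives were other pseudocounts, filters, scalings and fits, a replicate block, and each library left out.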

Additional observations from a re-analysis of the deposited data

How the results depend on the processing

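All 4 OAS genes stayed called higher against CON and against GA under each of 19 alternatives. Only OAS1X and OAS1Y inform this, because OAS1Z and OAS2 passed the filter through GB alone and could not be called lower. In the main fit, 2.94% of all tested genes were called higher against CON and 2.66% against GA. No OAS gene was called in GA vs. CON under any alternative. There OAS1Z and OAS2 carry no information, and they fell under the filter in the fit of only CON and GA. Scaling to the same sum, median-of-ratios factors and quantile normalization moved the log2FC of OAS1Y in GB vs. CON only between 7.63 and 7.65. The pseudocount moved OAS1Z (6.94 to 9.23) and OAS2 (5.34 to 8.63) most. With the replicate number as a block, the counts of OAS genes called were 4, 4 and 0 in the 3 comparisons, again informed by OAS1X and OAS1Y only. No call of an OAS gene or of a pathway list changed with the block. Deviations of same-numbered libraries correlated at −0.031 to 0.077, so the numbers were not taken to pair the samples. Counts for the 3 lists did not change in these alternatives, except for TLR3 as given here. Values near 0 changed sign: RPL6 in GB vs. GA with median-of-ratios factors (0.032) and quantile normalization (0.064), and in GB vs. CON without CON2 (−0.0078) or GB2 (−0.0024; −0.0078 to 0.025 with each library left out), ABCE1 in GB vs. CON with quantile normalization (−0.0081) or without GB3 (−0.020; −0.020 to 0.085 with each left out), PDE12 in GA vs. CON with median-of-ratios factors (−0.0010) and quantile normalization (−0.015), and OAS1Z in GA vs. CON without CON1 (−0.12) or GA1 (−0.097; −0.12 to 0.46 with each left out). IQCD was called in GB vs. GA with a pseudocount of 0.1 (1.04), with median-of-ratios factors (1.03), without GA1 (1.05) and without GB2 (1.10), and lost its call in GB vs. CON with a pseudocount of 1 (0.98). TLR3 lost its call in GB vs. GA with a pseudocount of 1 (0.96) and without GA3 (0.97). The difference in OAS1Z share was 5.97 points against CON alone and 5.32 against GA alone, designs that cannot reach the threshold, and 4.85 to 6.65 with 1 library left out. Without a GB library the exact permutation test gave p = 0.0714, the smallest possible with 2 against 6 libraries. All these shares rest on OAS1Z values near 0 without IFNT, so no difference in makeup is drawn from them. The number of all genes called in GA vs. CON, 9, fell to 2 with a filter at a mean FPKM of 1, to 5 with the replicate block, and to as few as 3 with 1 library left out, so the shares of all genes called in GA vs. CON rest on few genes.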
